A study of Mus musculus with 4 samples.

Results

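Broad peaks centred on gene ends were taken from peak lists of accessible chromatin in hair follicle stem cells (HFSC) of the mouse. A peak belonged to this group when it lay on chromosomes 1 to 19, was 1000 to 4000 bp wide, and had its midpoint no more than 1000 bp from an annotated end, start or far end, of a gene that encodes a protein. The Irx5KO list held 5611 such peaks among 486180 peaks, and the WT list held 3929 among 499794. Members were thus chosen by measured values, the width and position of each peak, so both are given below as a description and support no test. A peak could count for more than 1 gene, and 14.6% of the Irx5KO peaks and 14.0% of the WT peaks lay at the ends of 2 or 3 genes.

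Irx5KO and WT each had 2 samples, all HFSC isolated in a sort that kept cells with CD34 and a marker written as CD45f and discarded those with Ly-6A/E. Open chromatin was mapped by ATAC-seq, which relies on the Tn5 transposase to insert adapters where DNA is exposed. The title of the series links Irx5 to repair of damaged DNA and to activation of HFSC. The allele of Irx5, the age and sex of the mice, the protein meant by CD45f and the number of animals behind each sample are not known here. The replicates of a genotype shared 1 list, which leaves no measure of their spread, and no test between genotypes was run. Intervals in brackets are 95% Wilson intervals, which cover counting error only, and the read depth behind each list is unknown. Whether a difference between the lists comes from genotype, depth or library preparation cannot be told apart.

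The start of an active gene is usually free of nucleosomes, and in mammals many such starts lie in stretches rich in CpG dinucleotides, the CpG islands. Genes used in most cells, and many genes of transcription factors and signalling, have a CpG island at their start. Tissue-specific genes more often start in CpG-poor DNA, some with a TATA box. Gene families that arose by repeated duplication stand side by side in near-identical copies, to which short reads are hard to assign.

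Promoters under these peaks are shown first, because the number of CpG under these peaks went with the kind of gene and the width of the peak. Each is 300 bases of GRCm38.p6 from RefSeq, from 250 bases before to 50 after a gene start, written 5′ to 3′ on the strand of the gene, with every CpG in capitals. The first 4 belong to genes used in many cells. Tagln2 encodes an actin-binding protein (chr1:172499996-172500295, plus strand, 18 CpG), Klf13 a zinc finger transcription factor (chr7:63938866-63939165, minus strand, 32 CpG), Jun (chr4:95052173-95052472, minus strand, 15 CpG) and Junb (chr8:84978699-84978998, minus strand, 21 CpG) subunits of the transcription factor AP-1.
Tagln2: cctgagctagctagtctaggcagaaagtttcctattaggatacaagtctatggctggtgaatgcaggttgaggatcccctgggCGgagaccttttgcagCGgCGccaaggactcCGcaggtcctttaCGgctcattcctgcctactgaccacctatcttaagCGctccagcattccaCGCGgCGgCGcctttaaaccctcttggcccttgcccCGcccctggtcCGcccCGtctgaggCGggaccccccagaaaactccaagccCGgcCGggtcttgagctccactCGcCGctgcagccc
Klf13: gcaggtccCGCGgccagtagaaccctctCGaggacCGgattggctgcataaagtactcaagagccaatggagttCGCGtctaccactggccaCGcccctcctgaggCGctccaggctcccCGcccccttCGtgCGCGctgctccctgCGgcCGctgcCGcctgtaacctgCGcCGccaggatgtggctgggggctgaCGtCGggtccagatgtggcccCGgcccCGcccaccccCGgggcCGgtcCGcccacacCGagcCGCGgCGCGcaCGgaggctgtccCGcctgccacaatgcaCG
Jun: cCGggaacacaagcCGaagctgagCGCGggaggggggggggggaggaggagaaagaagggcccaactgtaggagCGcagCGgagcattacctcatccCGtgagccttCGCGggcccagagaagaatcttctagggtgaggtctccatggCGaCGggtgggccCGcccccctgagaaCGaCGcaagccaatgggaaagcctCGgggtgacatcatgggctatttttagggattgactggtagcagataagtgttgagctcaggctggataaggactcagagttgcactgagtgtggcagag
Junb: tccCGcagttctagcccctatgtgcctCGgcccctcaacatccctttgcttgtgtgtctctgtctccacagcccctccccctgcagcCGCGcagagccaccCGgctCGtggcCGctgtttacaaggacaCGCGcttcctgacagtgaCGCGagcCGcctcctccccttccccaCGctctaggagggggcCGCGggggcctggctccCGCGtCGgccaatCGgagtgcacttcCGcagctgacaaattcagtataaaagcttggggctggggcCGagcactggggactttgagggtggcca
The other promoters belong to duplicated families. Pramel17 and Pramel39 are members of the Prame-like family (chr4:101843973-101844272, minus strand, 3 CpG, and chr5:94306747-94307046, minus strand, 1 CpG), Cyp3a41b is a cytochrome P450 gene (chr5:145584681-145584980, minus strand, 2 CpG), and Gm36298 and Zfp935 lie near each other on chromosome 13 (chr13:62653165-62653464, minus strand, 6 CpG, and chr13:62466763-62467062, minus strand, 8 CpG).
Pramel17: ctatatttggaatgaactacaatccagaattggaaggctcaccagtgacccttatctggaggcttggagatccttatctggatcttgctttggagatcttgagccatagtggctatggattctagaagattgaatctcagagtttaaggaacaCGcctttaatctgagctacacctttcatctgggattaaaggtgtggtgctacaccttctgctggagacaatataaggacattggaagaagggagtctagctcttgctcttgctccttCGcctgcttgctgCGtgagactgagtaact
Pramel39: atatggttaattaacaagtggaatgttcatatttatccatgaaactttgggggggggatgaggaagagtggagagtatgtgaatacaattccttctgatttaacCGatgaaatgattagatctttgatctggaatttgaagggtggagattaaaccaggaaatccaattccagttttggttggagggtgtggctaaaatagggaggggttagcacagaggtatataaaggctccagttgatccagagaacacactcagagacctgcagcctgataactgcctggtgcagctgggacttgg
Cyp3a41b: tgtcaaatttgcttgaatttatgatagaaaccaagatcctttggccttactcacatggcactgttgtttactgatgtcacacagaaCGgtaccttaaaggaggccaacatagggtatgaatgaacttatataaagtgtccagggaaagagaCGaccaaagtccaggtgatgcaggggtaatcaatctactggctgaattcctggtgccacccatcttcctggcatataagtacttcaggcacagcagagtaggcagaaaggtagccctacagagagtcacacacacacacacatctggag
Gm36298: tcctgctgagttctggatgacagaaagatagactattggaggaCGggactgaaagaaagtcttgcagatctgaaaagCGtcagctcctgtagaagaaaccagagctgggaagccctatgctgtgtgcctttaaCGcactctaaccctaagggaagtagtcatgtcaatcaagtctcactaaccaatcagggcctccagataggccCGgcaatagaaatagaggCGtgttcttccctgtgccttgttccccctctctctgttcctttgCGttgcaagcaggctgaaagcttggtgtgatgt
Zfp935: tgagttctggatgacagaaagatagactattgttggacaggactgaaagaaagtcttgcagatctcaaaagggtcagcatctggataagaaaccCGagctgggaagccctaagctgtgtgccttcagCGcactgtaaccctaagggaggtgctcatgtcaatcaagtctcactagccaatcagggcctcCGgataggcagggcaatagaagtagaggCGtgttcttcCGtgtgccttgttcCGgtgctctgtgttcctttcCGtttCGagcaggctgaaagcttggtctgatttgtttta
The Gm36298 and Zfp935 promoters had the same base at 88.8% of 294 aligned positions. The median promoter of all 16457 genes with a strand in the RefSeq table held 14 CpG. Tagln2, Pramel17, Gm36298 and Zfp935 were 4 of the 5 genes with the widest peaks in both lists whose promoter lay inside both peaks. Cyp3a41b had the widest such peak in Irx5KO only. Pramel39 had a broad gene-end peak in WT only, which was not the widest of that kind. Klf13, Jun and Junb were added after their values were seen.

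The gene-end peaks were a small part of each list and most were near the lower limit of width. They made up 1.27% of 441022 autosomal peaks in Irx5KO and 0.868% of 452761 in WT. Median width was 1330 bp in Irx5KO, with quartiles of 1140 and 1630 bp, and 1270 bp in WT, with quartiles of 1110 and 1560 bp. Peaks over 2000 bp numbered 583 in Irx5KO and 372 in WT, and peaks over 3000 bp 87 and 67. The width limit cut through a continuous range. At 1000 bp, just inside it, 99 of 864 Irx5KO peaks and 95 of 856 WT peaks lay at gene ends, and at 990 bp, just outside it, 106 of 936 and 98 of 849 did. At the upper limit 1 of 41 Irx5KO peaks and 1 of 37 WT peaks of 4000 bp did, against 0 of 28 and 2 of 39 peaks of 4010 bp.

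Among peaks of 1000 to 4000 bp, 9.26% in Irx5KO and 6.81% in WT were centred on a gene end. The share was highest between 1000 and 1490 bp, at 12.4% (12.01 to 12.8) in Irx5KO and 10.04% (9.69 to 10.4) in WT. Between 1500 and 1990 bp Irx5KO had 9.52% (9.05 to 10.02), against 5.84% (5.45 to 6.25) in WT. Between 3000 and 4000 bp it was 1.67% (1.36 to 2.05) and 1.27% (1.0 to 1.6). Below 1000 bp the order was the other way. Below 500 bp Irx5KO had 3.49% (3.42 to 3.56), against 3.73% (3.66 to 3.804) for WT, and 6.74% (6.59 to 6.9) and 7.03% (6.86 to 7.19) between 500 and 990 bp.

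**Figure D1:**
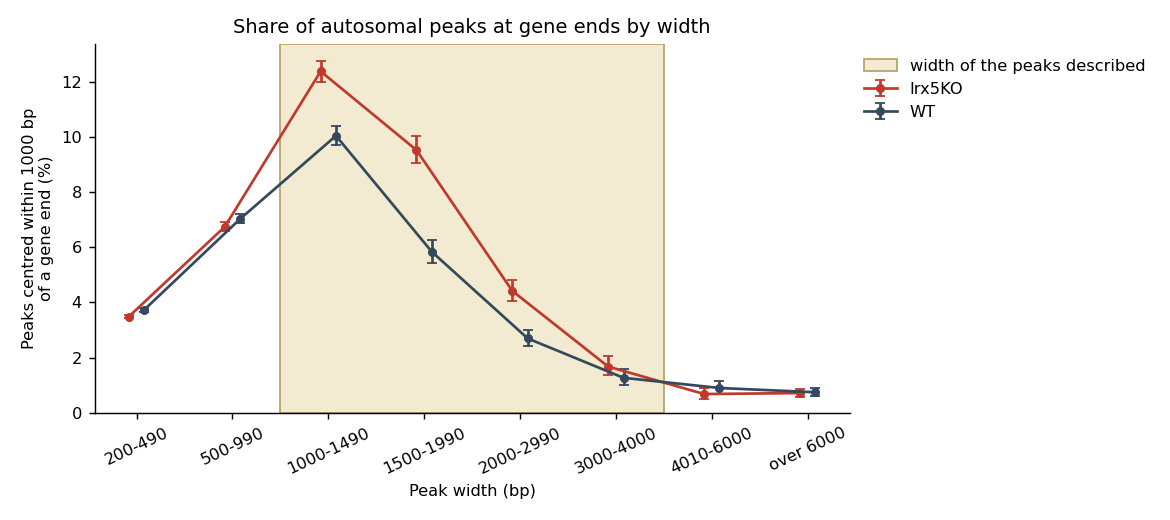
Share of autosomal peaks whose midpoint lay within 1000 bp of a gene end (y axis, percent) by peak width (x axis, bp) in Irx5KO and WT; points are shares of all peaks of that width, bars are 95% Wilson intervals, and the shaded band marks the widths described here. The share is highest at 1000 to 1490 bp in both lists, with Irx5KO at 12.4% and WT at 10.04%.

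Most of these peaks sat at gene starts. The strand was known for 16457 of 20665 protein-coding genes on these chromosomes, so the start end could be told from the far end for 4547 Irx5KO peaks and 3196 WT peaks. The nearest gene end was the start for 91.2% (90.4 to 92.0) of them in Irx5KO and 87.9% (86.7 to 88.9) in WT. Of gene-end peaks under 1000 bp wide, 69.1% in Irx5KO and 71.8% in WT were nearest to a start. The position was not centred on the start itself. The median midpoint lay 121 bp into the gene in Irx5KO and 110 bp in WT, and 69.4% and 65.2% of the midpoints were inside the gene. The summits, the points of highest signal in the authors' lists, lay closer, with medians of -15.5 bp in Irx5KO and -12 bp in WT, where negative is before the start. The start base itself was covered by 95.8% of the start-end peaks in Irx5KO and by 94.6% in WT.

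The far-end peaks were few, 399 in Irx5KO and 388 in WT. An annotated start of some gene, from a promoter table that also holds noncoding genes and several starts for some genes, lay inside 19.5% of those in Irx5KO and 17.5% of those in WT. Among peaks of the same width away from the ends of coding genes, 1.81% in Irx5KO and 1.25% in WT held such a start. Chromosome 18 was left out of these 4 shares.

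**Figure D2:**
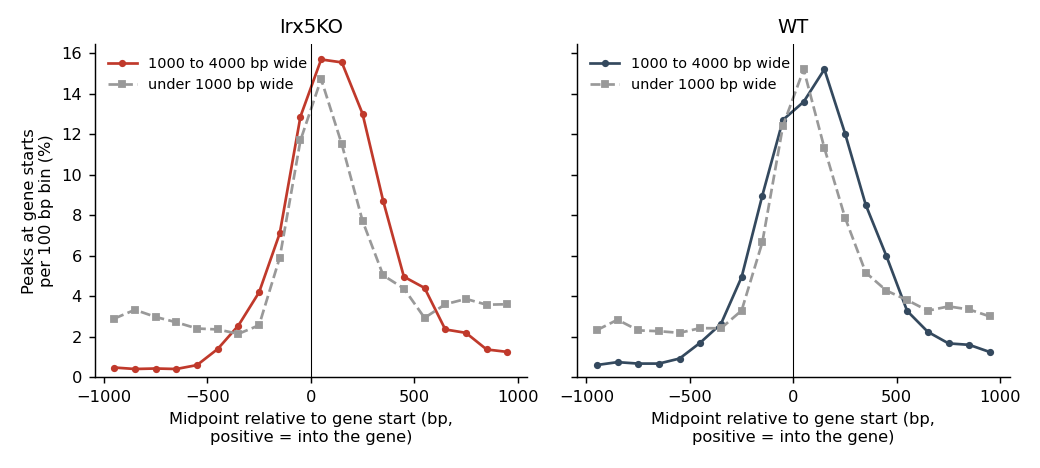
Position of peak midpoints relative to the gene start (x axis, bp, positive values into the gene) as a percent of the start-end peaks in 100 bp bins (y axis), for peaks 1000 to 4000 bp wide (solid) and under 1000 bp wide (dashed), in Irx5KO (left) and WT (right). Broad peaks gather just inside the gene, with a median of 121 bp in Irx5KO and 110 bp in WT.

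Nearly all of these regions were open in both genotypes, and the lists differed in how wide the open region was called. A WT peak of any width was overlapped by 99.7% (99.6 to 99.8) of the Irx5KO peaks, and an Irx5KO peak by 99.9% (99.8 to 99.99) of the WT peaks. Among all autosomal peaks 77.4% in Irx5KO and 73.0% in WT overlapped the other list, but peaks of 1000 to 4000 bp away from gene ends did so in 99.9% of cases in both lists. A broad gene-end peak of the other list was overlapped by 57.3% (56.0 to 58.6) of the Irx5KO peaks and 81.6% (80.4 to 82.8) of the WT peaks. The main overlap was a peak of 1000 to 4000 bp, centred anywhere, for 58.2% of the Irx5KO and 83.2% of the WT peaks. For peaks of the same width away from gene ends it was so in 77.8% in Irx5KO and 78.5% in WT.

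Peaks without a broad gene-end counterpart mostly met a narrower peak. Of the 2398 Irx5KO peaks without a broad gene-end counterpart, 2213 had as their main overlap a WT peak under 1000 bp, with a median of 780 bp against 1200 bp for the Irx5KO peak. A further 106 met a WT peak over 4000 bp, 64 a broad WT peak centred elsewhere, and 15 none. Of the 723 WT peaks without a counterpart, 614 met an Irx5KO peak under 1000 bp, with medians of 840 bp for the Irx5KO peak and 1140 bp for the WT peak. Only 2 met none. Single broad peaks were often several peaks in the other list: 34.2% (32.4 to 36.2) of these 2398 Irx5KO peaks spanned 2 or more WT peaks, and 40.4% (36.9 to 44.0) of the 723 WT peaks spanned 2 or more Irx5KO peaks.

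In genes, 6288 of 20665 (30.4%) had a broad gene-end peak in Irx5KO and 4345 (21.0%) in WT. Both lists had one at 3680 genes (17.8%), Irx5KO alone at 2608 (12.6%) and WT alone at 665 (3.22%). Shared genes were thus 58.5% of the Irx5KO genes and 84.7% of the WT genes. Of the genes with one in Irx5KO only, 2534 (97.2%) had a gene-end peak of another width in WT. Of those with one in WT only, 629 (94.6%) had a gene-end peak of another width in Irx5KO. Over all genes, 74.8% had a gene-end peak of some width in WT and 76.9% in Irx5KO.

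Widths were also compared without the width limit, in pairs of peaks that were each other's main overlap. At gene starts the Irx5KO peak was the wider in 67.9% (67.0 to 68.8) of 9829 pairs of any width, and the medians were 880 bp for Irx5KO against 710 bp for WT. At far ends it was the wider in 46.2% (44.3 to 48.1) of 2624 pairs, and away from gene ends in 40.5% (40.3 to 40.7) of 295389. Among pairs with a mean width of 1000 to 4000 bp the share was 71.0% (69.4 to 72.5) of 3322 at gene starts, 47.0% (41.6 to 52.4) of 328 at far ends and 35.7% (35.3 to 36.2) of 49581 away from gene ends. The WT peak was the wider in 925 of these pairs at gene starts, 171 at far ends and 28330 away from gene ends, and the others were equal. The Irx5KO peak was thus more often the wider at gene starts and the WT peak away from gene ends. At far ends the counts were close, with 154 pairs of this mean width wider in Irx5KO and 171 in WT. For far-end pairs of any width it was 1212 and 1261, and 151 were equal. Clusters of like-named genes were defined as 4 or more neighbours with the same letters at the front of the symbol within 250 kb. Among start pairs with a mean width of 1000 to 4000 bp, Irx5KO was the wider in 44.4% (36.3 to 52.9) of 135 in clusters. At other starts it was the wider in 72.1% (70.5 to 73.6) of 3187. Among the 3176 pairs in which both peaks were broad gene-end peaks, the Irx5KO peak was the wider in 2071, the WT peak in 1050, and 55 were equal.

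**Figure D3:**
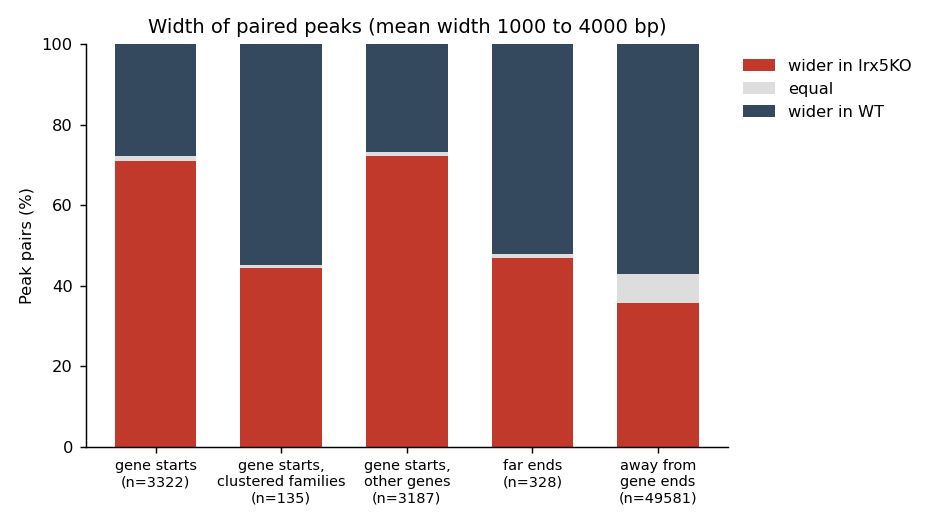
Percent of peak pairs (y axis) in which the Irx5KO peak was wider, both were equal or the WT peak was wider, for pairs with a mean width of 1000 to 4000 bp at gene starts, at starts inside and outside clusters of like-named genes, at far ends and away from gene ends (x axis; n is the number of pairs). Irx5KO was the wider in 71.0% at gene starts and in 35.7% away from gene ends.

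The targeted gene itself was among the genes with a broad peak in Irx5KO only. Irx5 (chromosome 8, 92357796 to 92361456) encodes a homeodomain transcription factor. Its lower end had a peak of 1310 bp in Irx5KO (92356871 to 92358180) and of 780 bp in WT (92357211 to 92357990), and the WT peak lay inside the Irx5KO peak. The allele is not known, so this peak does not check the genotype labels. Fgf18, a growth factor that keeps HFSC at rest, had a single peak of 1990 bp at its start in Irx5KO (chromosome 11, 33146701 to 33148690). WT peaks covered 95.5% of it, and the WT gene-end peak had 1170 bp. Brca1, which acts in homologous recombination, had 1450 bp in Irx5KO (chromosome 11, 101551631 to 101553080) and 760 bp in WT (101552231 to 101552990).

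The widest peaks mixed duplicated families with a few regulatory genes. In Irx5KO the 10 widest, from 4000 down to 3780 bp, were nearest to Gm21761, Pramel42, Scgb1b19, Vmn1r160, Cyp3a41b, E2f3, Vmn1r159, Vmn1r122, Ifi211 and Sox12. Vmn1r genes encode receptors of the vomeronasal organ, Scgb1b19 a secretoglobin and Ifi211 a protein of an interferon-inducible family. E2f3, a transcription factor of the cell cycle, had 3920 bp in Irx5KO (chromosome 13, 29983191 to 29987110), where WT peaks covered 79.3%, the main one 1280 bp wide and the one centred on the gene end 1040 bp. Sox12, an SRY-box transcription factor, had 3780 bp in Irx5KO (chromosome 2, 152395741 to 152399520), of which WT peaks covered 91.5%, the main one 1760 bp wide.

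In WT the 10 widest peaks, from 4000 down to 3850 bp, were nearest to H2ac24, Sirpb1c, Gm5784, Gm13304, Ccl21b, Ifi203, Fcgr3, Gm45965, Klf13 and 9030025P20Rik. H2ac24 encodes a histone H2A in the large histone cluster of chromosome 13. Its WT peak of 4000 bp (21831031 to 21835030) was covered to 78.8% by Irx5KO peaks, of which the main one had 1710 bp. Klf13 was broad in both lists, with 3070 bp in Irx5KO (chromosome 7, 63937151 to 63940220) and 3860 bp in WT (63936281 to 63940140). The WT peaks at Gm5784 and at Fcgr3, a receptor for antibodies on white blood cells, lay inside single Irx5KO peaks of 34760 and 22530 bp, outside the width range. Likewise the Irx5KO peak of 3940 bp at Cyp3a41b lay inside a WT peak of 34560 bp. The copy-rich families could share reads between copies, which was not tested.

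The largest excess of width over the other list lay at different kinds of gene in the 2 genotypes. In Irx5KO it was at Junb, Plekhg2, Fam83h, Bicd2, Gpr3, Marchf9, Npas2, Rspo3, Insm1 and Rgs6, none of them in a cluster of like-named genes. The Junb peak was 3590 bp in Irx5KO (chromosome 8, 84977321 to 84980910), of which WT peaks covered 49.3%. Npas2, a clock transcription factor, Rspo3, a secreted enhancer of WNT signalling, and Rgs6, a regulator of G protein signalling, had peaks of 1320, 1300 and 1270 bp in Irx5KO that no WT peak overlapped. These 3 peaks had low scores, at percentiles 21.5, 42.2 and 31.7 of the Irx5KO list. In WT the excess was at Gm31255, Cyp2a4, Tcl1b5, Cyp2c68, Cyp2c69, Cyp2c67, Gm51600, Cyp2c40, Vmn1r163 and Gjb5, of which 5 are cytochrome P450 genes of the Cyp2 families. The Gm51600 peak of 1180 bp in WT, at score percentile 24.9, was overlapped by no Irx5KO peak. The Cyp2c68 peak was 3180 bp in WT, and Irx5KO peaks covered 58.2% of it. Gjb5, a connexin of skin, was the only gene of these 10 with its peak at a known gene start, with 1650 bp in WT, of which 37.6% was covered in Irx5KO.

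Genes were then grouped in 34 classes chosen with earlier results of these lists known, and 5 of 239 listed symbols were not matched on these chromosomes. Shares are read beside 30.4% of all genes in Irx5KO and 21.0% in WT. In Irx5KO, lists of signalling, chromatin, immediate early and cell cycle genes stood highest, and in WT the Klf and Sp, histone and housekeeping genes did. Of 23 genes of BMP, TGF-beta and FGF signalling, which hold HFSC at rest or release them, 18 (78.3%, 58.1 to 90.3) had a broad gene-end peak in Irx5KO and 10 (43.5%, 25.6 to 63.2) in WT. All 23 had a gene-end peak of some width in both lists, against 76.9% of all genes in Irx5KO and 74.8% in WT. Broad gene-end shares were 56.5% and 21.7% in the upper 50% of peaks by score, and 26.1% and 8.7% with widths from 1500 bp. The shares of all genes also fell under these settings, so 30.4% and 21.0% do not serve beside them. In the upper 50% by score, 3001 of all 20665 genes were broad in both lists, 2396 in Irx5KO only and 497 in WT only. With widths from 1500 bp it was 931, 1238 and 323. Among the 23 signalling genes, the type 1 receptor Bmpr1a had a width of 1460 bp in Irx5KO, against 1240 bp in WT. The receptor Tgfbr2 had 1540 and 720 bp, the receptor Fgfr2 1950 and 400 bp, and the BMP-induced gene Id2 1060 and 1140 bp. Here and below, a pair of widths is the widest gene-end peak in Irx5KO and then in WT.

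Of 26 chromatin regulators, Irx5KO was broad at 18 (69.2%, 50.0 to 83.5), against 11 (42.3%, 25.5 to 61.1) for WT. Both lists were broad at Arid1b, a subunit of the BAF remodelling complex (2460 and 1040 bp), Kmt2c, a histone methyltransferase (2720 and 1530 bp), Ezh2, the methyltransferase of the Polycomb complex (1570 and 1620 bp), and Chd4, a remodelling enzyme (2310 and 1240 bp). The insulator protein gene Ctcf had 1580 and 980 bp, and the acetyltransferase gene Crebbp, broad in WT only, had 990 and 1020 bp. At Crebbp the lists differed by little and fell on either side of the width limit.

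Immediate early genes, which cells switch on within minutes of a stimulus, gave 15 of 22 (68.2%, 47.3 to 83.6) in Irx5KO and 9 (40.9%, 23.3 to 61.3) in WT. Jun had 2910 and 2720 bp, Fos 1420 and 1420 bp, Egr1 2260 and 1690 bp, and the phosphatase gene Dusp1 1700 and 1430 bp. Ier5 had 1930 and 590 bp and Fosl2 1410 and 890 bp. No gene of this list was broad in WT only, and 6 were in Irx5KO only, against 3.22% and 12.6% of all genes. At 3.22%, a count of 0 among 22 genes is near the share of all genes. Among cell cycle and replication genes, Irx5KO was broad at 17 of 25 (68.0%, 48.4 to 82.8), against 11 (44.0%, 26.7 to 62.9) for WT. The cyclin gene Ccnd2 had 1460 and 1380 bp, the inhibitor gene Cdkn1b 2020 and 1150 bp, Myc 1590 and 950 bp, and the proliferation marker gene Mki67 1470 and 810 bp. In the list of Notch and Hippo signalling it was 14 of 21 (66.7%, 45.4 to 82.8) and 9 (42.9%, 24.5 to 63.5), with the ligand gene Jag1 at 2090 and 1850 bp, the Hippo effector gene Yap1 at 1970 and 1920 bp, and its target gene Ccn2 at 1740 and 820 bp.

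Families of general use were also above the share of all genes. Histone genes had one at 42 of 71 (59.2%, 47.5 to 69.8) in Irx5KO and 32 (45.1%, 34.0 to 56.6) in WT. All 32 histone genes broad in WT were broad in Irx5KO as well, against 84.7% of all genes broad in WT. Genes of Klf and Sp transcription factors, which bind GC-rich DNA, had one at 15 of 25 (60.0%, 40.7 to 76.6) and 13 (52.0%, 33.5 to 70.0). E2 enzymes and deubiquitinases had one at 41 of 75 (54.7%, 43.4 to 65.4) and 26 (34.7%, 24.9 to 45.9). Among housekeeping genes it was 12 of 20 (60.0%, 38.7 to 78.1) and 9 (45.0%, 25.8 to 65.8), with Hspa8, a chaperone gene, at 2470 and 1150 bp and the glycolytic gene Gapdh at 1580 and 2550 bp. The polyubiquitin gene Ubb had 3720 and 980 bp. Genes of the cytosolic ribosome, at 30 of 76 (39.5%, 29.2 to 50.7) and 19 (25%, 16.6 to 35.8), and of the proteasome, at 15 of 46 (32.6%, 20.9 to 47.0) and 11 (23.9%, 13.9 to 37.9), had intervals that included the share of all genes, although 97.4% and 94.7% of the ribosomal genes had a gene-end peak of some width. For the ribosomal genes the order turned between 1500 and 4000 bp, with 2 genes in Irx5KO and 3 in WT. Nearly all ribosomal genes were open at a gene end, and a minority were broad there. Over all genes, 76.9% in Irx5KO and 74.8% in WT had a gene-end peak of some width.

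**Figure D4:**
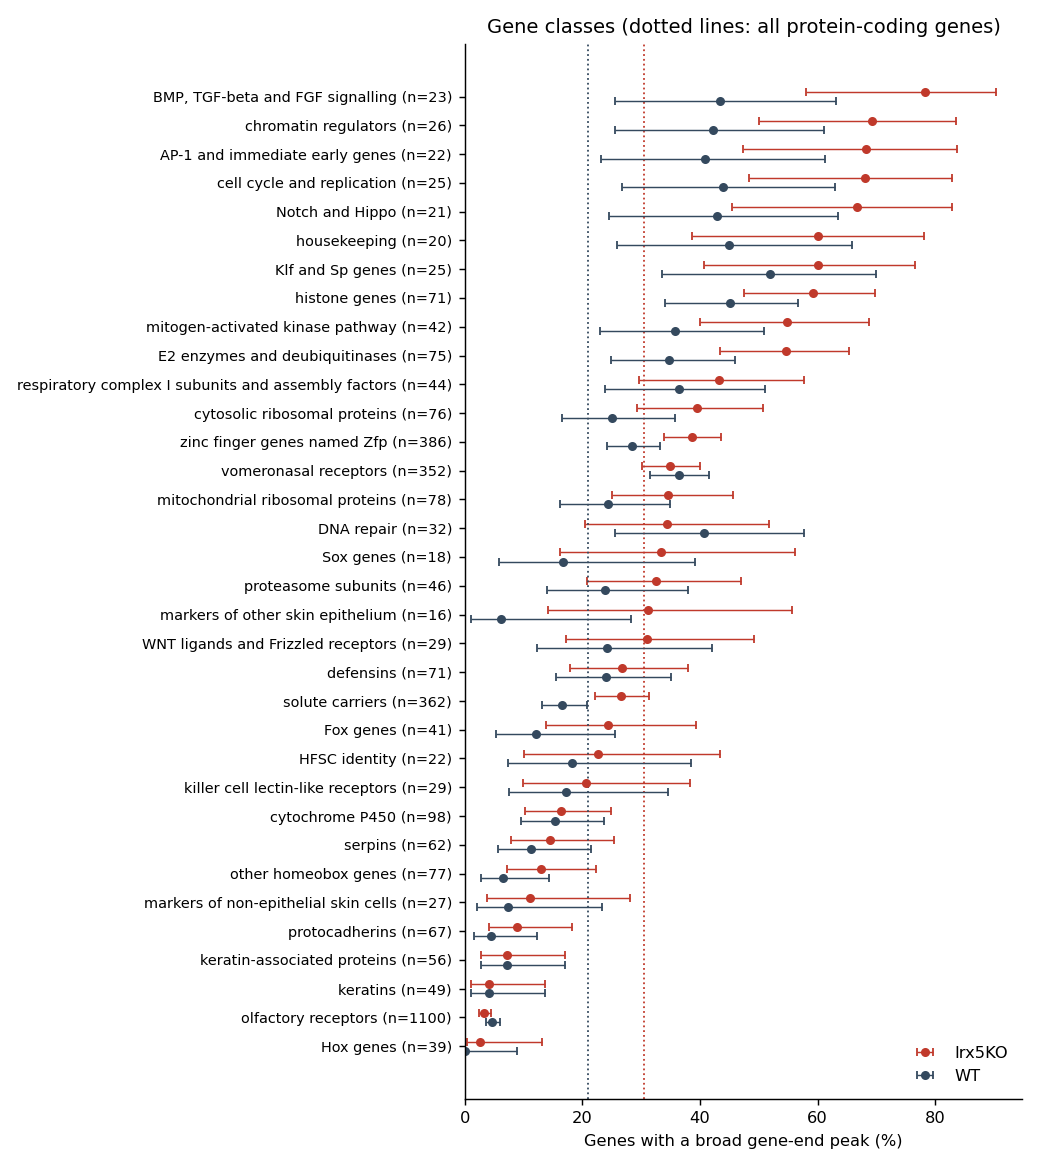
Percent of genes with a broad gene-end peak (x axis) in each of 34 gene classes (y axis, number of genes in brackets), in Irx5KO (upper point) and WT (lower point); bars are 95% Wilson intervals and dotted lines mark all protein-coding genes, 30.4% in Irx5KO and 21.0% in WT. Classes are ordered by Irx5KO, where BMP, TGF-beta and FGF signalling stands at the top with 78.3%; in WT the Klf and Sp genes are highest with 52.0%.

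DNA repair genes, named in the series title, were an exception to the order of the lists. A broad gene-end peak was present at 11 of 32 (34.4%, 20.4 to 51.7) in Irx5KO and at 13 (40.6%, 25.5 to 57.7) in WT, with overlapping intervals. Both lists were broad at 10, among them the damage kinase genes Atm (1360 and 1320 bp) and Atr (1070 and 1180 bp), and the Brca1 partner gene Bard1 (1340 and 1440 bp). Brca1 was broad in Irx5KO only. In WT only it was the checkpoint kinase gene Chek1 (950 and 1030 bp), and the end-joining genes Xrcc5 (750 and 1020 bp) and Lig4 (950 and 1610 bp). The 3 last pairs overlapped, with 84.5%, 73.5% and 59.0% of the WT peak covered by Irx5KO peaks.

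Genes of HFSC identity were below or near the share of all genes. Of 22, 5 (22.7%, 10.1 to 43.4) had a broad gene-end peak in Irx5KO and 4 (18.2%, 7.31 to 38.5) in WT. A gene-end peak of some width was present at 86.4% in Irx5KO and 77.3% in WT, against 76.9% and 74.8% of all genes. Nfib, a transcription factor of HFSC, had 1920 and 1310 bp, and the basal keratin gene Krt14 had 1930 and 1020 bp. Sox9, which specifies HFSC, had 1070 bp in Irx5KO (chromosome 11, 112781301 to 112782370), of which WT peaks covered 20.6%. Its widest WT gene-end peak, of 480 bp, lay at the other end of the gene. Krt5, the partner keratin gene, was broad in WT only, with 1100 bp. The sorted marker gene Cd34 had 470 and 360 bp and the bulge keratin gene Krt15 230 and 200 bp. Runx1, Trp63 and Dkk3 had no gene-end peak in either list. Only the outer ends of a gene count here, so peaks at starts inside a gene were not looked at. Markers of other skin epithelium had a broad gene-end peak at 5 of 16 in Irx5KO (31.2%, 14.2 to 55.6) and 1 in WT (6.25%, 1.11 to 28.3). Of those Ly6a, which encodes the marker sorted against, was broad in both (1330 and 1430 bp). Its 2 broad peaks lay side by side and did not overlap each other. Other WT peaks covered 60.9% of the Irx5KO peak, and other Irx5KO peaks covered 83.2% of the WT peak. Markers of fibroblasts, immune cells, pigment cells, vessels, nerve and muscle were broad at 3 of 27 in Irx5KO (11.1%, 3.85 to 28.1). In WT it was 2 (7.41%, 2.06 to 23.4). The genes were Pmel, Tek and, in Irx5KO only, Cd8a.

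Some developmental and tissue-specific families were rarely broad, and others stood near all genes. Sox genes had a broad gene-end peak at 6 of 18 (33.3%, 16.3 to 56.3) in Irx5KO and 3 (16.7%, 5.84 to 39.2) in WT, and Fox genes at 10 of 41 (24.4%, 13.8 to 39.3) and 5 (12.2%, 5.32 to 25.5). Serpins had one at 9 of 62 (14.5%, 7.83 to 25.3) and 7 (11.3%, 5.58 to 21.5), and killer cell lectin-like receptors at 6 of 29 (20.7%, 9.85 to 38.4) and 5 (17.2%, 7.6 to 34.5). The order of the lists turned for serpins with summits in place of midpoints and for the lectin-like receptors with nearby peaks joined. Of 39 Hox genes, 1 in Irx5KO and 0 in WT had such a peak, the hair gene Hoxc13 with 1780 and 750 bp. A count of 0 of 39 genes has an upper Wilson bound of 8.97%. Other homeobox genes had one at 10 of 77 (13.0%, 7.21 to 22.3) in Irx5KO and 5 (6.49%, 2.81 to 14.3) in WT, including Irx1 (1600 and 1150 bp) and Irx3 (1310 and 1340 bp), relatives of Irx5. Keratin genes had one at 2 of 49 in each list, and olfactory receptor genes at 36 of 1100 (3.27%, 2.37 to 4.50) in Irx5KO and 51 (4.64%, 3.54 to 6.04) in WT.

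Vomeronasal receptor genes were unlike the olfactory receptors. They had a broad gene-end peak at 123 of 352 (34.9%, 30.1 to 40.1) in Irx5KO and 128 (36.4%, 31.5 to 41.5) in WT, and the order turned between 1500 and 4000 bp, with 57 genes in Irx5KO and 56 in WT. Defensin genes, which encode antimicrobial peptides, had one at 19 of 71 (26.8%, 17.9 to 38.1) and 17 (23.9%, 15.5 to 35.0). Their order turned under 4 alternatives. In these 2 families the genes broad in WT only, 38 and 6, were about as many as those broad in Irx5KO only, 33 and 8, whereas over all genes 665 stood against 2608. This was not particular to them. Cytochrome P450 genes had 9 in WT only and 10 in Irx5KO only, and olfactory receptor genes 32 and 17.

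The width of a peak went with the kind of gene. Peaks were counted by whether their nearest gene stood in a cluster of like-named genes or had a provisional symbol (Gm, LOC or Rik names), as 19.9% of all genes did. Between 1000 and 1490 bp it was 9.47% of the peaks in Irx5KO and 12.4% in WT. Between 2000 and 2990 bp it was 21.9% and 32.9%. Between 3000 and 4000 bp it was 49.4% of 89 peaks in Irx5KO and 51.5% of 68 in WT. From the first of these ranges to the second, provisional symbols outside clusters rose from 16.1% to 36.8% in WT. Clusters did not, at 16.8% and 14.7% (10 of 68 peaks), after 7.46% between 1000 and 1490 bp. In Irx5KO both rose, clusters from 12.5% to 24.7% and provisional symbols from 9.39% to 24.7%. Clusters held 12.3% of all genes. The start end was nearest in 92.9% (91.9 to 93.8) of the stranded Irx5KO peaks of 1000 to 1490 bp and 89.1% (87.7 to 90.3) of those in WT, and in 71.4% (60.5 to 80.3) and 48.2% (35.7 to 61.0) of those of 3000 to 4000 bp. Among start-end peaks, the median CpG number of the promoter was 23 in both lists between 1000 and 1490 bp, and 9 in Irx5KO and 3 in WT between 3000 and 4000 bp, from 55 and 27 peaks. Of the promoters printed above, Tagln2, Klf13 and Junb were richer in CpG than the medians at 3000 to 4000 bp. Only Klf13, with 32, exceeded the median of 23 at 1000 to 1490 bp. Pramel17 and Pramel39 did not exceed the WT median at 3000 to 4000 bp.

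**Figure D5:**
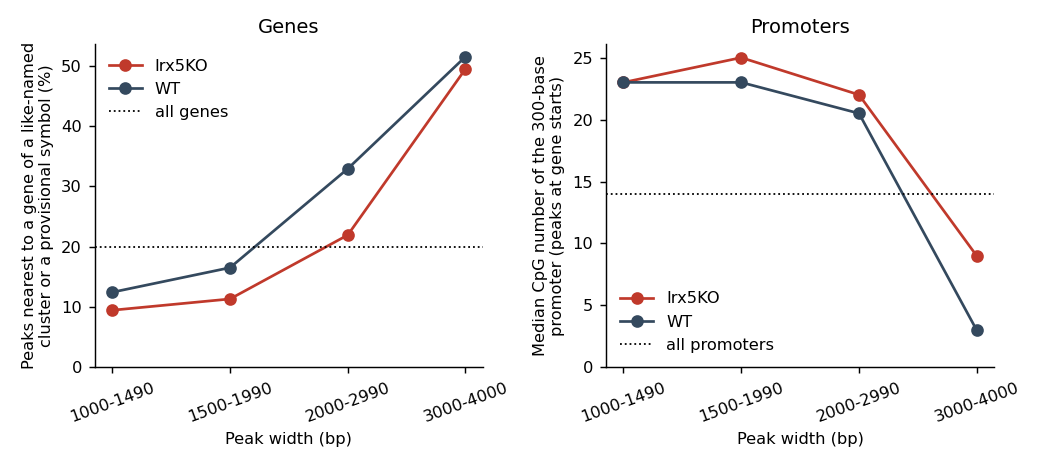
Left, percent of broad gene-end peaks nearest to a gene in a like-named cluster or with a provisional symbol (y axis) by peak width (x axis, bp); right, median CpG number of the 300-base promoter of start-end peaks (y axis) by peak width, in Irx5KO and WT, with all genes or promoters as dotted lines. The share rises to 49.4% in Irx5KO and 51.5% in WT at 3000 to 4000 bp, where the CpG number falls to 9 and 3.

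In CpG number and the letters GGGCGG and TATAAA, promoters of genes broad in Irx5KO only were like those of genes broad in both lists. Those of genes broad in WT only were not. For CCAAT and TGACTCA the intervals of the 3 groups overlapped. Each gene with a known strand entered with the promoter at its start, also where its broad peak lay at the far end. The median CpG number was 22 for 2113 genes in Irx5KO only, 13 for 549 in WT only, 23 for 3009 in both and 8 for 10786 in neither. The letters GGGCGG, a GC box bound by Sp and Klf factors, were found on either strand in 68.3% (66.3 to 70.3) of the promoters of genes in Irx5KO only, 44.8% (40.7 to 49.0) of those in WT only, 65.9% (64.2 to 67.6) of those in both and 47.3% of all promoters. TATAAA was found in 8.28% (7.18 to 9.53), 14.8% (12.03 to 17.97) and 8.57% (7.63 to 9.63) of the same 3 groups and in 13.5% of all. CCAAT was found in 39.8% (37.8 to 42.0), 39.9% (35.9 to 44.0) and 42.2% (40.4 to 43.9), against 39.1% of all. The AP-1 letters TGACTCA were found in 3.98% (3.22 to 4.90), 2.37% (1.39 to 4.01) and 3.56% (2.95 to 4.28), against 4.59% of all. Matches are letters in a 300-base window and not binding sites. No motif holds the letters of another. Like-named clusters held 5.41% of the genes in Irx5KO only, 16.2% of those in WT only and 5.82% of those in both, against 12.3% of all genes.

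Broad gene-end peaks did not rank above other peaks of their width. By the authors' score, used only within a list, the median percentile was 73.2 in Irx5KO and 66.7 in WT, against 82.1 and 84.0 for peaks of 1000 to 4000 bp away from gene ends. Between chromosomes the share of genes with such a peak ran from 22.3% on chromosome 11 to 38.7% on chromosome 10 in Irx5KO, and from 11.6% on chromosome 11 to 29.3% on chromosome 13 in WT. It was higher in Irx5KO on all 19 chromosomes.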

How the data were processed

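ATAC-seq was done on 2 Irx5KO and 2 WT samples, and per the labels both replicates of a genotype name the same deposited peak list, so it was treated as 1 pooled list. Each peak has borders on a 10 bp grid, a summit and a score, the authors' own value per peak, read from the narrowPeak layout per the file headers; it served only for ranks inside 1 list. Per the submitters' processing notes, FastQC, cutadapt 2.9, Bowtie2, Genrich 0.6, deepTools 3.4.2, ChIPseeker 1.24.0 and mm10 were used, without their settings. Calling settings and the joining of nearby peaks by the caller could change every width. Read depth is not given in the sources used here.

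Peaks were set beside the RefSeq genes and promoters of GRCm38.p6, the assembly of mm10. A peak counted as overlapping from 1 shared base. Wilson intervals have a level of 95%. Python 3.11.15, pandas 2.3.3, numpy 2.4.6, scipy 1.17.1, matplotlib 3.10.9 and bedtools 2.31.1 were used. Promoters were aligned end to end with Biopython 1.88. On simulated lists, 200 of 200 planted genes were recovered and 0 of 780 decoys taken.

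The members and gene lists were chosen with earlier results of these data known. Named genes were Irx5, Fgf18 and Brca1, those nearest to the 10 widest peaks and to the 10 largest excesses of width in each list, and the first of each class by status. Other examples from the lists, the cluster measure, and the Klf13, Jun and Junb promoters were chosen after their values were seen.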

Additional observations from a re-analysis of the deposited data

How the results depend on the processing

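The order of the lists in their counts of peaks, genes and overlaps did not turn under any alternative run, while that of 6 gene classes did. With widths of 1500 to 4000 bp, the lists held 1924 Irx5KO and 1141 WT peaks, with 1238 genes broad in Irx5KO alone, 323 in WT alone and 931 in both lists. A broad gene-end counterpart was then overlapped by 42.5% of Irx5KO and 71.3% of WT peaks, and any peak by 100% of both. The counterpart share was 54.7% in Irx5KO and 78.8% in WT with a window of 500 bp, 58.6% and 80.2% with 2000 bp, and 54.8% and 83.7% in the upper 50% by score, where any peak was overlapped by 99.96% and 100%. With at least 50% of the peak covered, the Irx5KO counterpart share was 55.9%, and 86.3% of Irx5KO and 95.7% of WT peaks were covered by a peak of any width. Joining peaks up to 300 bp apart, an alternative chosen after seeing the data, gave a counterpart share of 60.9% in Irx5KO, and 99.1% of Irx5KO and 99.5% of WT peaks then overlapped any peak. Lists of equal length and summits in place of midpoints were also chosen after seeing the data. At equal length the lists kept the same 5611 and 3929 peaks, so that run is no check on the order. Of 648 further values, for class shares, start-end shares and median widths under 9 alternatives, 120 left the interval of the reported share or the quartiles of the reported widths, 60 of them with widths from 1500 bp and 20 in the upper 50% by score.

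The order of the lists turned for defensins with a window of 500 bp (7 genes in Irx5KO, 13 in WT), widths to 6000 bp (24 and 27), the upper 50% by score (10 and 16) and joined peaks (7 and 10). It turned for serpins with summits (10 and 11), for killer cell lectin-like receptors with joined peaks (4 and 7), and for WNT ligands and Frizzled receptors with widths from 1500 bp (3 and 4). No paired analysis was possible because each genotype has 1 pooled list, and for the same reason no replicate could be left out.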

Other observations

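The sex chromosomes were outside the peaks described. On chromosome X, 210 of 6818 peaks of 1000 to 4000 bp were centred on a gene end in Irx5KO (3.08%, 2.70 to 3.52) and 174 of 6585 in WT (2.64%, 2.28 to 3.06), below the autosomal shares of 9.26% and 6.81%. On chromosome Y it was 0 of 1024 in Irx5KO and 0 of 1129 in WT, with upper Wilson bounds of 0.374% and 0.339%.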
